A study of Rattus norvegicus and Mus musculus with 251 samples.

Results

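The genes described here are the activators of the circadian clock, Arntl (also named Bmal1), Clock and Npas2, together with the pair of repressors Bhlhe40 and Bhlhe41. They were taken by symbol from the mouse count table, where these 5 were found among 46078 gene identifiers, and each of them had enough counts to be tested. The libraries came from C57BL/6J mice of both sexes that drank saline or morphine solution, from the prefrontal cortex (PFC) and the nucleus accumbens (NAc), a part of the ventral striatum. PFC had 6 saline libraries (3 female, 3 male), 8 under chronic morphine (3 and 5), 9 taken 24 h after morphine (4 and 5) and 7 taken 2 weeks after morphine (3 and 4). NAc had 7 saline libraries (3 and 4), 8 under chronic morphine (3 and 5), 9 at 24 h (4 and 5) and 8 at 2 weeks (3 and 5). No transgene was named, and the labels used here give no age, dose, length of drinking or hour of collection. Since clock genes follow the time of day, a difference in the hour of collection and a difference in treatment cannot be told apart.

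In the clock, the protein of Arntl pairs with that of Clock, or with that of its relative Npas2, which is known for its expression in the forebrain. The pair binds E-box sequences and switches on the Per and Cry repressors, the REV-ERB receptors and also Bhlhe40 and Bhlhe41. BHLHE40 and BHLHE41 are bHLH repressors that bind E-boxes themselves, while REV-ERB and ROR receptors act on Arntl. Bhlhe40 is also induced by hormones, low oxygen and cell stimulation.

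Clock and Npas2, and likewise Bhlhe40 and Bhlhe41, are paralogues, so their coding sequences are shown to tell whether reads of 75 bases could be confused between them. The stretch of 150 coding bases in which each pair was most alike is printed from the GENCODE M21 transcripts, with bases shared by both members in capitals.
Clock, coding bases 82 to 231: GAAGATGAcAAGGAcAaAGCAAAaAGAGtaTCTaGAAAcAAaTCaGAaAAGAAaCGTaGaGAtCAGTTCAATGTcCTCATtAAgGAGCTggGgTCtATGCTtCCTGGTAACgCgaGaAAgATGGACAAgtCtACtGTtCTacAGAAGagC
Npas2, coding bases 7 to 156: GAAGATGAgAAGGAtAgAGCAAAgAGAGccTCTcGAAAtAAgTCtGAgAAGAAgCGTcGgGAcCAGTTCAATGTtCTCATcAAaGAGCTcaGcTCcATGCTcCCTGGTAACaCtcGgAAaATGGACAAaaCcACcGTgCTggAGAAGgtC
Bhlhe40, coding bases 166 to 315: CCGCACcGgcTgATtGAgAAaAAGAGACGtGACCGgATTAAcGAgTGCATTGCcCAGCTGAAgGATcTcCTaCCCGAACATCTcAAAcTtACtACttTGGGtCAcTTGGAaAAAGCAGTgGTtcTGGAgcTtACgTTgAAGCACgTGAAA
Bhlhe41, coding bases 142 to 291: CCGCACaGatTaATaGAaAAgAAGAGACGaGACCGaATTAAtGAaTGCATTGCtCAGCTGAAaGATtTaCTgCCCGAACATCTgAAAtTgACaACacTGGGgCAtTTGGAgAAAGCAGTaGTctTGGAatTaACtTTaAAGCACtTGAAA
Even here Clock and Npas2 shared 113 of 150 bases and Bhlhe40 and Bhlhe41 shared 116. The longest run of identical bases anywhere in the coding sequences was 16 for the first pair and 15 for the second, shorter than a read. Untranslated bases were not compared, and for Clock the coding sequence has 2565 bases beside 13727 exon bases in all.

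Each gene lies on GRCm38 as protein-coding: Arntl (ENSMUSG00000055116) at chr7:113207465-113314126, Clock (ENSMUSG00000029238) at chr5:76209868-76304792, Npas2 (ENSMUSG00000026077) at chr1:39193731-39363236, Bhlhe40 (ENSMUSG00000030103) at chr6:108660629-108666925 and Bhlhe41 (ENSMUSG00000030256) at chr6:145858243-145865558. Clock and Bhlhe41 are on the minus strand and the other 3 on the plus strand. Each overlaps 1 or 2 annotated genes, among them antisense RNAs at Arntl and Bhlhe40. The sources used here do not say if reads were counted by strand, so reads of such a partner may be included.

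The letters through which these genes regulate each other were looked up in the promoter table, which holds rat genes (RefSeq, build GRCr8). These rat sequences are background to the mouse counts. In the 250 bases before the start, the E-box CACGTG was found once each in Bhlhe40 and Bhlhe41 and in 5.59% of 33469 promoters. The element of the ROR and REV-ERB receptors, TAGGTCA, was found once in Bmal1 and in 2.26% of promoters. Its other form TGGGTCA (3.44% of promoters), the D-box TTANGTAA (2.04%) and the cAMP response element TGACGTCA (1.59%), each searched on both strands, were in none of the windows of the 5 genes, and Clock and Npas2 held none of the motifs. A match is a description of letters, not a shown site. The windows are printed with the motif in capitals.
Bhlhe40, chr4:143174200-143174291, plus strand, 250 to 159 bases before the start: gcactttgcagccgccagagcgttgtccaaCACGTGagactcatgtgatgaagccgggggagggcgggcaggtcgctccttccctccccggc
Bhlhe41, chr4:180569356-180569461, minus strand, 106 to 1 bases before the start: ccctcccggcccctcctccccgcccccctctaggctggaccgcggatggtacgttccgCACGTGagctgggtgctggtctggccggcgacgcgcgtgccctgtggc
Bmal1, chr1:176766255-176766327, plus strand, 73 to 1 bases before the start: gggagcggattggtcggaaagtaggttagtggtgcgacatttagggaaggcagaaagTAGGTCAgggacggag

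Library totals ran from 22387525 to 43963295 counts, apart from number 10 in PFC (female, 2 weeks), which had 5182601. That library detected 10563 genes against 18166 to 21142 in the other PFC libraries, and 294 of 7548 genes with a median of at least 20 CPM (counts scaled to library size) were at 0 in it. The numbers 27 (chronic morphine, both regions) did not match their sex label. Among the libraries, 13 genes had separate high and low levels. In PFC the high side held 3 of 6 saline libraries (the males), 8 of 8 under chronic morphine, 7 of 9 at 24 h and 0 of 7 at 2 weeks, and in NAc 4 of 7 (the males), 8 of 8, 7 of 9 and 0 of 8. This split of the animals therefore goes with the stages, and its origin was not tested. The labels call the cells neurons, and neuronal markers had a median of 10.23 log2 CPM in PFC and 9.56 in NAc, but oligodendrocyte markers were at 9.36 and 10.003, so the tissue held glia too. NAc libraries held striatal markers at 4.07 to 9.16 log2 CPM and cortical markers at -0.63 to 4.90, a spread between NAc libraries that is set beside the results it touches. In bulk tissue, fewer cells of a type and less RNA per cell cannot be told apart.

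Per kilobase of exon, Bhlhe40 was by far the most abundant of the 5 genes in PFC. Its median there was 45.9 CPM per kb (27.9 to 61.7 over 30 libraries). Bhlhe41 followed at 10.8 and Npas2 at 10.3, with ranges of 9.20 to 14.3 and 4.14 to 15.3 that overlapped each other but not that of Bhlhe40. Clock was at 5.83 and Arntl, the shared partner of Clock and Npas2, was lowest at 4.40, again with overlapping ranges. In NAc the order changed. Bhlhe41 and Bhlhe40 had medians of 13.2 and 13.1 CPM per kb (9.48 to 19.1 and 9.44 to 15.7 over 32 libraries), so the pair did not differ beyond their spread. Npas2 had the widest range of the 5 genes, from 1.85 to 18.6 around 8.68. Clock was at 5.74 (4.94 to 6.98) and Arntl at 3.50 (2.10 to 5.14).

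**Figure D1:**
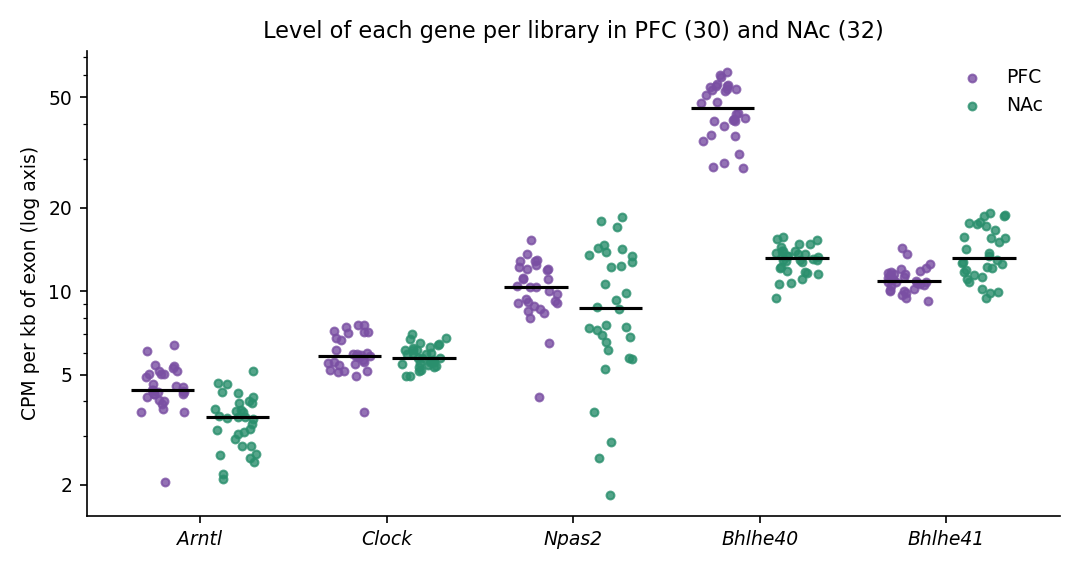
Level of each gene in every library of PFC (30, purple) and NAc (32, green) in CPM per kb of exon on a log axis; each point is 1 library and the bar is the median. The Clock value of 0 in PFC number 10 cannot be drawn on a log axis. Bhlhe40 in PFC lies above all other values, and Npas2 in NAc spreads most.

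Bhlhe40 differed most between the regions. On the log2 CPM scale it lay between 7.03 and 8.18 in PFC (median 7.75) and between 5.48 and 6.21 in NAc (median 5.95), so the regions did not overlap. The level in PFC was 3.54-fold higher, a log2 difference (NAc minus PFC) of -1.82 ± 0.05 (SE; edgeR adjusted p = 1.1e-35), and by p it ranked 9 of 19266 genes. In this comparison 3 of the 5 genes were called, meaning an edgeR adjusted p under 0.05, against 66.2% of all genes tested, so a call alone sets a gene apart little. Arntl was the second gene lower in NAc, by -0.39 ± 0.07 (edgeR adjusted p = 6.78e-06). Its log2 CPM of 3.95 to 5.59 in PFC and 3.99 to 5.27 in NAc overlapped. The 3.95 came from number 10, and the next lowest PFC library was at 4.79, above the NAc median of 4.72. Bhlhe41 went the other way at 0.32 ± 0.06 (edgeR adjusted p = 2.08e-06). With only saline libraries in the contrast its difference was 0.20 ± 0.12 (edgeR adjusted p = 0.201) and no longer called, while those of Bhlhe40 (-1.93 ± 0.10) and Arntl (-0.45 ± 0.16) were. Npas2 (-0.13 ± 0.14) and Clock (0.03 ± 0.12) were not called. Without the libraries numbered 10 and 27, Clock was at -0.07 ± 0.05. Of 22 other clock genes, 5 were higher and 14 lower in NAc (86.4% called). Of the 5 genes of ROR and REV-ERB receptors, 4 were lower and 1 higher. Rorb (-1.40 ± 0.08), Rora (-1.24 ± 0.07) and Nr1d1 (-0.97 ± 0.06) were among the lower ones. A link to the level of Arntl was not tested.

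Under chronic morphine, Bhlhe40 was the only one of the 5 genes called against saline in PFC, and it was lower. In the 6 saline libraries its lowest, median and highest values were 7.60, 7.83 and 8.18 log2 CPM. In the 8 chronic libraries they were 7.03, 7.39 and 7.60. Every chronic library lay below every saline one, although by little at the border, with 7.596 for the highest chronic and 7.597 for the lowest saline library. The log2 fold change was -0.53 ± 0.12 (SE; edgeR adjusted p = 0.0363), a level 0.691 times that of saline. One call among 5 genes compares with 0.417% of all genes in this contrast. How many of all genes separate completely between groups was not counted in any comparison, so a lack of overlap is a description.

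**Figure D2:**
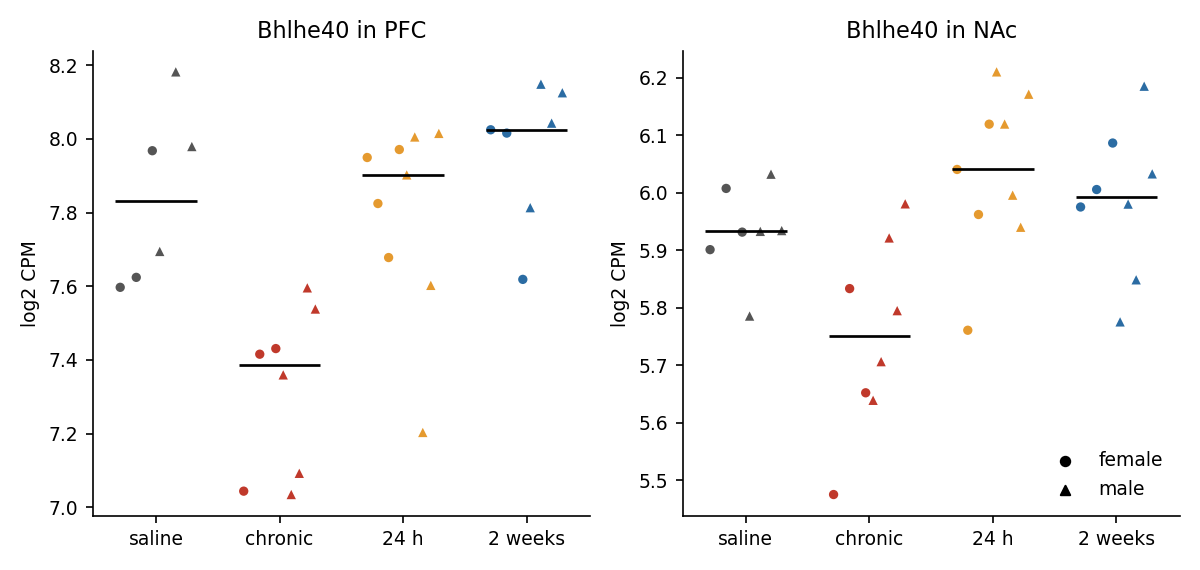
Bhlhe40 in log2 CPM for each library by stage, in PFC (left) and NAc (right), with circles for females, triangles for males and a bar at the median. In PFC the 8 chronic libraries (7.03 to 7.60) lie below the 6 saline ones, and the 2-week libraries (7.62 to 8.15) lie above the chronic ones.

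The later stages did not show this lower level in PFC. At 24 h Bhlhe40 had 7.203, 7.90 and 8.01 as lowest, median and highest log2 CPM, and 1 of 9 libraries lay below the saline range. At 2 weeks it had 7.62, 8.02 and 8.15, within the saline range in 7 of 7 libraries. Against saline the log2 fold changes were -0.04 ± 0.12 and 0.12 ± 0.12, with edgeR adjusted p of 0.99997 and 0.947. Against chronic morphine, Bhlhe40 was higher at 2 weeks by 0.66 ± 0.12 (edgeR adjusted p = 0.00177), and the groups did not overlap. The 24 h value against chronic morphine was 0.50 ± 0.11 and missed the threshold (edgeR adjusted p = 0.0986), while DESeq2 called it (adjusted p = 0.0147). By edgeR, 0.824% of all genes were called at 2 weeks against chronic morphine and 0.0278% at 24 h against chronic morphine. DESeq2 called 35 of 17966 genes at 24 h against chronic morphine. These contrasts share the chronic libraries with the one against saline.

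The PFC calls of Bhlhe40 moved with the split of the animals. With the split as a covariate the chronic value was -0.34 ± 0.16 and the 2-week value against chronic morphine 0.34 ± 0.21, each with an edgeR adjusted p of 1.0. Saline and chronic males all lay on the high side, which allows a comparison within it. The 3 saline males had 7.69, 8.18 and 7.98 log2 CPM and the 5 chronic males 7.36, 7.03, 7.09, 7.60 and 7.54, so these did not overlap either. The log2 fold change among them was -0.62 ± 0.17, as large as over both sexes, with an edgeR adjusted p of 0.300 on fewer libraries. No 2-week library was on the high side, so for 2 weeks against chronic morphine the stage and the split cannot be told apart. The chronic call also ended with 2 surrogate variables as covariates (-0.49, edgeR adjusted p = 0.0678) and in 9 of the 30 fits that left out 1 library, namely saline numbers 1, 3, 6 and 7 and chronic numbers 25, 26, 28, 29 and 30, where the log2 fold change was -0.57 to -0.47 and the edgeR adjusted p 0.0513 to 0.154.

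In NAc Bhlhe40 also had its lowest median under chronic morphine, with smaller differences between the stages. Saline libraries had 5.79, 5.93 and 6.03 log2 CPM as lowest, median and highest, chronic ones 5.48, 5.75 and 5.98, those at 24 h 5.76, 6.04 and 6.21 and those at 2 weeks 5.78, 5.99 and 6.19. Of the 8 chronic libraries, 7 lay below the saline median and 4 below the saline range, so the groups overlapped. The chronic value was -0.21 ± 0.07 (edgeR adjusted p = 0.12), not called. Against chronic morphine, Bhlhe40 was higher at 2 weeks by 0.27 ± 0.07 (edgeR adjusted p = 0.0305). That call ended in 9 of 32 fits that left out 1 library (2-week numbers 8, 9, 10, 14 and 15 and chronic numbers 25, 27, 28 and 29, with log2 fold changes of 0.22 to 0.28 and edgeR adjusted p of 0.0531 to 0.107). It also ended with the split as a covariate (0.16 ± 0.13, edgeR adjusted p = 0.634), with no low-count filter (0.27, edgeR adjusted p = 0.0661), without the numbers 10 and 27 (0.25, edgeR adjusted p = 0.209) and without 3 NAc libraries high in hypothalamic markers (0.23, edgeR adjusted p = 0.0869). The 24 h value against chronic morphine was 0.29 ± 0.06 (edgeR adjusted p = 0.0717; DESeq2 adjusted p = 0.00921). Of all genes, edgeR called 1.88% for 2 weeks against chronic morphine and 0.087% for 24 h against it. DESeq2 called 122 of 18382 genes for 24 h against chronic morphine. Whether the stage effects differ between the regions was tested directly and 0 of 5 genes were called, by edgeR or DESeq2, against 0.0363% of all genes. Bhlhe40 had the smallest unadjusted p there, 0.0266 (edgeR adjusted p = 0.986). It was the 1 gene of the 5 under 0.05 unadjusted, beside 921 of 19266 genes tested. Its chronic effect in NAc minus that in PFC was 0.34 ± 0.14.

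edgeR called none of the activators, Arntl, Clock and Npas2, against saline at any stage, while DESeq2 called Clock in NAc at 24 h. In NAc under chronic morphine 0 of 5 genes were called by edgeR or DESeq2, against 1.69% of all genes by edgeR. At an unadjusted edgeR p under 0.05 there were 2 of 5, beside 2785 of 18382 genes tested. At 24 h in NAc edgeR called 0 of 5, against 0.163% of all genes, and DESeq2 1, against 167 of 18382. Unadjusted, edgeR had 2 of 5 under 0.05, beside 2218 of 18382 genes tested. At 24 h in PFC both tools called 0 of 5, against 0.0779% of all genes by edgeR. Unadjusted, 1 of 5 was under 0.05 there, beside 541 of 17966 genes tested. At 2 weeks both tools called 0 of 5 in either region, with 0 under 0.05 unadjusted, against 0.00557% of all genes in PFC and 0.00544% in NAc.

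**Figure D3:**
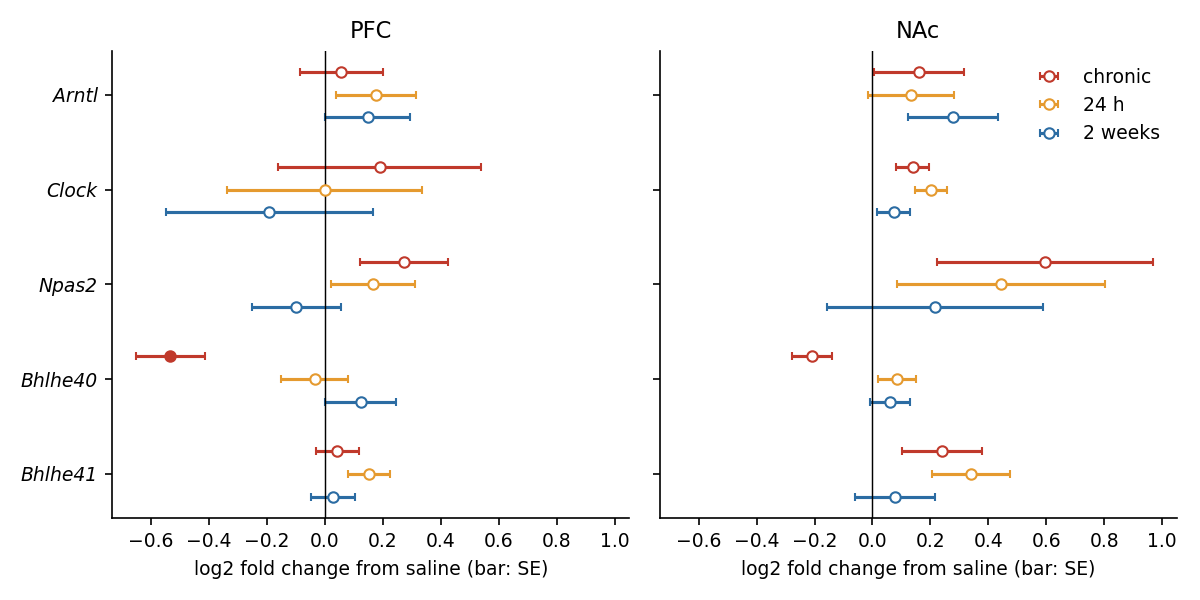
Log2 fold change from saline of the 5 genes under chronic morphine (red), at 24 h (orange) and at 2 weeks (blue) in PFC and NAc; bars are standard errors and a filled point marks an edgeR adjusted p under 0.05. The only filled point is Bhlhe40 in PFC under chronic morphine.

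Clock came nearest to a call among the activators, in NAc at 24 h. Its lowest, median and highest values were 6.09, 6.23 and 6.36 log2 CPM in the 7 saline libraries and 6.20, 6.40 and 6.58 in the 9 libraries at 24 h. Of the 9, 6 lay above the saline range and the groups overlapped. The log2 fold change was 0.20 ± 0.06 (edgeR adjusted p = 0.146; DESeq2 adjusted p = 0.0404). It was called with the difference of striatal and cortical markers as a covariate (0.20 ± 0.05, edgeR adjusted p = 0.049), but among males on the high side of the split it was 0.03 ± 0.08 (edgeR adjusted p = 0.964). Those males at 24 h were only numbers 22, 23 and 24, the lowest of their group in the marker difference. In PFC, Clock was listed with 0 counts in number 10, which allows up to 0.579 CPM, while the other libraries had a median of 77.6 CPM, worth 402 counts at that depth. Without the numbers 10 and 27 its PFC values against saline were 0.25 ± 0.12 under chronic morphine, -0.00 ± 0.11 at 24 h and 0.08 ± 0.12 at 2 weeks, with edgeR adjusted p of 0.342 or more.

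Arntl was not called against saline at any stage by either tool. In PFC its medians were 4.98 log2 CPM in saline libraries (4.83 to 5.08), 5.01 under chronic morphine (4.79 to 5.51), 5.12 at 24 h (5.00 to 5.33) and 5.27 at 2 weeks (3.95 to 5.59). In NAc they were 4.58 (4.28 to 4.79), 4.77 (3.99 to 5.27), 4.73 (4.05 to 5.03) and 4.76 (4.46 to 5.14). The ranges overlapped throughout. In PFC at 2 weeks, however, 5 of 7 libraries lay above the saline range and 2 below it, among them number 10 at 3.95. At 24 h in PFC 6 of 9 lay above that range and 0 below it. The value farthest from 0 was 0.28 ± 0.15 at 2 weeks in NAc (edgeR adjusted p = 0.828). The PFC value at 2 weeks was 0.15 ± 0.15. It ran from 0.06 to 0.29 in the 30 fits that left out 1 library, with 0 called. Its paralogue Arntl2 was not called in either region at any stage, with values against saline of -0.48 ± 0.42 to 0.28 ± 0.39.

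Npas2 had the largest log2 fold changes of the 5 genes in NAc under chronic morphine and at 24 h, and also the largest errors there. Saline libraries there had 3.59, 5.15 and 5.88 log2 CPM as lowest, median and highest, chronic ones 3.16, 5.97 and 6.48, those at 24 h 3.78, 5.67 and 6.35 and those at 2 weeks 4.77, 5.27 and 6.05. The chronic value was 0.60 ± 0.37 and that at 24 h 0.44 ± 0.36, neither called. With the difference of striatal and cortical markers as a covariate they were 0.18 ± 0.18 and 0.49 ± 0.17, and among males on the high side of the split 0.87 ± 0.50 and -0.31 ± 0.57, so the 24 h value turned its direction there. Those males at 24 h were again only numbers 22, 23 and 24, the lowest of their group in the marker difference. Number 23 was also high in hypothalamic markers (6.07 log2 CPM). In PFC, 6 of the 8 chronic libraries lay above the saline range of 5.26 to 5.73 and 1 below it, and the log2 fold change of 0.27 ± 0.15 was not called (edgeR adjusted p = 0.707).

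Bhlhe41, the paralogue of Bhlhe40, was not called under chronic morphine in either region, and the 2 genes were not compared by a test. In PFC the saline libraries had 6.05, 6.14 and 6.29 log2 CPM as lowest, median and highest and the chronic ones 5.95, 6.13 and 6.59. The log2 fold change was 0.04 ± 0.07 (2 SE reach from -0.11 to 0.19). Of the 8 chronic libraries, 3 lay below the saline range and 1, number 25, above it. By label, chronic males had a mean of 6.05 log2 CPM against 6.15 in saline males, and chronic females 6.35 against 6.16. At 24 h, 6 of 9 PFC libraries lay above the saline range (6.15 to 6.52), with 0.15 ± 0.07 (edgeR adjusted p = 0.99997). In NAc the 24 h libraries had 6.18, 6.80 and 7.002 against 6.05, 6.33 and 6.57 in saline ones, and 6 of 9 lay above the saline range. That value, 0.34 ± 0.13 (edgeR adjusted p = 0.311), was called with the marker difference as a covariate (0.30 ± 0.07, edgeR adjusted p = 0.0311) and was -0.06 ± 0.19 among males on the high side of the split. At 24 h these were the same males 22, 23 and 24, low in the marker difference.

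Of the 22 other clock genes, which were chosen with earlier results known, 2 were called in PFC under chronic morphine, beside 0.417% of all genes. Both were lower like Bhlhe40. Nfil3, a repressor at D-boxes, was at -1.10 ± 0.13 (edgeR adjusted p = 6.37e-06) and Per1, a repressor of the activators, at -1.11 ± 0.14 (edgeR adjusted p = 2.99e-05). Both were higher at 2 weeks than under chronic morphine, Nfil3 by 1.06 ± 0.13 and Per1 by 0.92 ± 0.14. Of these PFC calls, that of Nfil3 under chronic morphine stayed with the split of the animals as a covariate, and the others ended. With the split as a covariate, the 2-week values were 0.95 ± 0.25 for Nfil3 and 0.38 ± 0.24 for Per1 (edgeR adjusted p = 1.0 for each), and the chronic ones -1.03 ± 0.18 for Nfil3 (edgeR adjusted p = 0.00967) and -0.78 ± 0.18 for Per1 (edgeR adjusted p = 0.188). Among males on the high side, both were lower under chronic morphine (Nfil3 -1.12 ± 0.18, edgeR adjusted p = 0.00348, and Per1 -1.54 ± 0.18, edgeR adjusted p = 7.2e-05). In NAc Nfil3 was lower under chronic morphine (-0.70 ± 0.17, edgeR adjusted p = 0.0312), while Nr1d2, which encodes a REV-ERB receptor, was higher there (0.32 ± 0.05, edgeR adjusted p = 0.00151) and at 24 h (0.28 ± 0.05, edgeR adjusted p = 0.0176). At 2 weeks against chronic morphine in NAc, Nfil3 was higher (0.62 ± 0.17, edgeR adjusted p = 0.0473) and Nr1d2 lower (-0.20 ± 0.05, edgeR adjusted p = 0.0309). With the split as a covariate neither was called there (edgeR adjusted p = 0.354 for Nfil3 and 0.261 for Nr1d2), nor was Nfil3 under chronic morphine (edgeR adjusted p = 0.132), while Nr1d2 under chronic morphine and at 24 h was (edgeR adjusted p = 0.0187 and 0.0126). Within the high side of the split, none of these NAc values against saline was called (edgeR adjusted p of 0.376 or more). Of 32 fits that left out 1 library, Nfil3 was called in 15 at 2 weeks against chronic morphine and in 27 under chronic morphine, and Nr1d2 in 24, 32 and 31 for 2 weeks against chronic morphine, chronic morphine and 24 h.

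The activity-dependent genes, which neurons switch on when stimulated, were lower in PFC under chronic morphine too. Of 15 such genes, also chosen with earlier results known, 9 were called under chronic morphine, all lower, beside 0.417% of all genes. The median log2 fold change was -1.30 over the list beside 0.01 over all genes tested. At 24 h 7 were called, all lower, beside 0.0779% of all genes. The list then had a median of -1.19, while Bhlhe40 itself was at -0.04 ± 0.12. The mean log2 CPM of the list was 6.46 to 7.42 in saline libraries, 4.88 to 6.22 under chronic morphine, 5.07 to 6.73 at 24 h and 6.69 to 7.21 at 2 weeks. Within groups too, Bhlhe40 went with these genes. Deviations from the treatment and sex means correlated at r = 0.79 (permutation p = 3e-05) and rho = 0.85 (permutation p = 1e-05, the smallest that the resamples can give) over 29 PFC libraries without number 10. Adjusted over 10 relations these were 0.0001 and 5e-05, and without the 2 farthest libraries r was 0.74. In NAc, Bhlhe40 had r = 0.41 and rho = 0.42 (n = 32; permutation p = 0.0347 and 0.0338, adjusted 0.0693 and 0.0675). The list in NAc had 1 gene called under chronic morphine (1.69% of all genes), lower, with a median of -0.39 beside -0.01 over all genes. That count was 0 with the split as a covariate, 5 with the marker difference as a covariate and 8 with 2 surrogate variables. In PFC under chronic morphine 7 genes of the list were called with the split as a covariate, beside 11 of 17966 over all genes. Among males on its high side 8 were called, beside 34 of 17505.

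**Figure D4:**
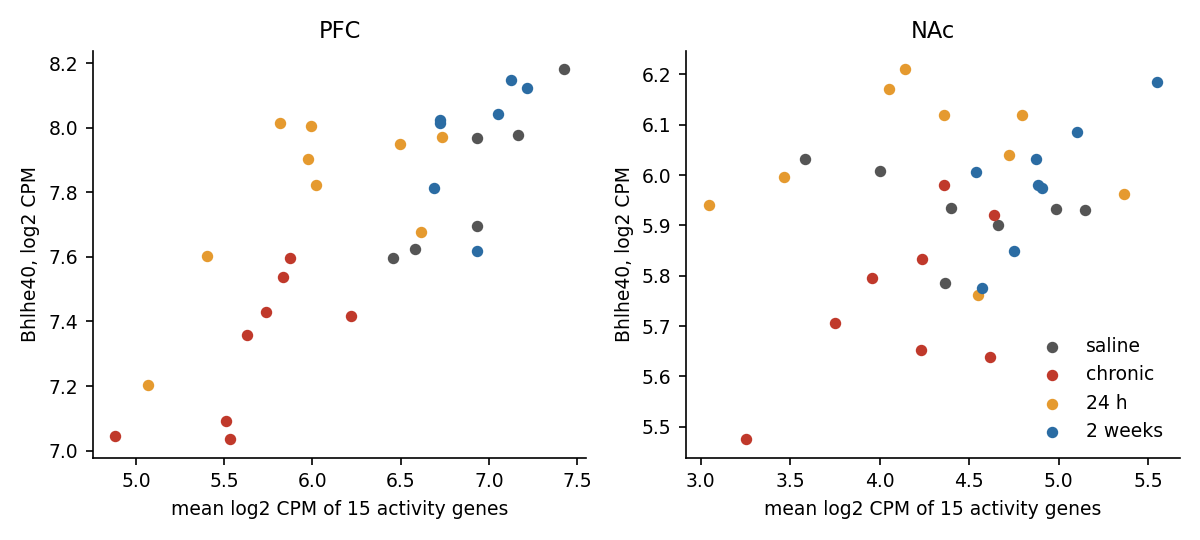
Bhlhe40 (log2 CPM) against the mean log2 CPM of 15 activity-dependent genes, 1 point per library coloured by stage, in PFC (left) and NAc (right). In PFC chronic libraries sit at the lower left and saline and 2-week libraries at the upper right, and several 24 h libraries have high Bhlhe40 at an activity level below the saline range of 6.46 to 7.42.

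In NAc, Arntl, Npas2 and Bhlhe41 varied together among libraries of the same group. Deviations correlated at r = 0.89 for Npas2 with Bhlhe41 (rho = 0.87), 0.85 for Arntl with Npas2 (rho = 0.84) and 0.84 for Arntl with Bhlhe41 (rho = 0.82) over 32 libraries. Each r had a permutation p of 1e-05, the smallest that the resamples can give, or 6.67e-05 adjusted over 20 relations, and the p of rho was at most 2e-05 (adjusted at most 0.000133). Without the 2 farthest libraries r was 0.86, 0.82 and 0.83. Arntl with Clock had r = 0.50 and rho = 0.50 (permutation p = 0.00905 and 0.00855, adjusted 0.0314 and 0.0285). Bhlhe40 stood outside this group of genes, with r of -0.05 to 0.35 with the other 4 (adjusted permutation p of r of 0.206 or more). In PFC without number 10, the adjusted permutation p of r of the 10 pairs was 0.17 or more and that of rho 0.11 or more. With number 10, 4 pairs of PFC had an adjusted permutation p of r under 0.05. Of these, Arntl with Npas2 had r = 0.65 with that library and 0.36 without it, while Clock with Bhlhe40 had 0.33 and 0.34, Arntl with Bhlhe40 0.44 and 0.36, and Npas2 with Bhlhe40 0.49 and 0.41. The last 3 had an r of similar size in both, but an adjusted permutation p of r under 0.05 only with number 10. Clock had a count of 0 in that library. Without the 2 libraries farthest in Clock, its r with Bhlhe40 was 0.22 in both cases.

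The same 3 genes went with the difference between striatal and cortical markers in the NAc punches. Other markers moved with them too, and the part of any of them in how these genes varied was not tested. The mean log2 CPM of 5 striatal markers minus that of 3 cortical markers ran from 0.58 to 7.85 in saline, 0.56 to 9.80 in chronic, 2.00 to 7.61 in 24 h and 4.78 to 7.82 in 2-week libraries. Its deviations correlated with those of Npas2 at r = 0.90 (rho = 0.88), of Bhlhe41 at 0.86 (rho = 0.84) and of Arntl at 0.80 (rho = 0.79), each with a permutation p of at most 3e-05 for r and rho, 0.0001 adjusted over 10 relations for r. Without the 2 farthest libraries r was 0.86, 0.82 and 0.77. Astrocyte markers went the other way, with r of -0.81 for Arntl (rho = -0.80), -0.78 for Bhlhe41 (rho = -0.77) and -0.71 for Npas2 (rho = -0.74), and so did hypothalamic markers, with -0.69 (rho = -0.70), -0.75 (rho = -0.71) and -0.83 (rho = -0.75) in the same order of genes. Over these 10 relations the permutation p of those 6 was at most 0.00018 and the adjusted p at most 0.0003, and r without the 2 farthest libraries was -0.80, -0.78, -0.73, -0.65, -0.68 and -0.74. The NAc libraries number 25 (chronic), 6 (saline) and 23 (24 h) had the hypothalamic markers at 7.26, 6.43 and 6.07 log2 CPM, against at most 4.76 in the others and a median of 0.43, and they were the 3 with the lowest Npas2. Without these 3, r with the striatal and cortical difference was 0.84 for Npas2, 0.79 for Bhlhe41 and 0.73 for Arntl (n = 29; rho = 0.81, 0.76 and 0.67; permutation p of at most 0.00078, for r at most 0.000889 adjusted over 25 relations). The pairs among the 3 genes then had r of 0.77 to 0.84, and Arntl with Clock 0.45 (adjusted permutation p = 0.0692). With all 32 libraries, Clock (r = 0.32, rho = 0.33, permutation p = 0.104 and 0.102, adjusted 0.174 and 0.138) and Bhlhe40 (r = 0.20, rho = 0.18, permutation p = 0.364 and 0.388, adjusted 0.404 and 0.431) went with it less. The tests of whether these correlations differ from each other were not run. In PFC, Bhlhe40 had r = -0.59 and rho = -0.61 with this difference (n = 29; permutation p = 0.00029 and 0.00079, adjusted 0.000725 and 0.00197), and -0.54 without the 2 farthest libraries. Its chronic value in PFC with the difference as a covariate was -0.54 ± 0.12 (edgeR adjusted p = 0.0258). The activity-dependent genes also went with Npas2 (r = 0.84), Bhlhe41 (r = 0.76) and Arntl (r = 0.75) in NAc, with rho of 0.82, 0.77 and 0.73 (permutation p of at most 4e-05, adjusted at most 0.0001).

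**Figure D5:**
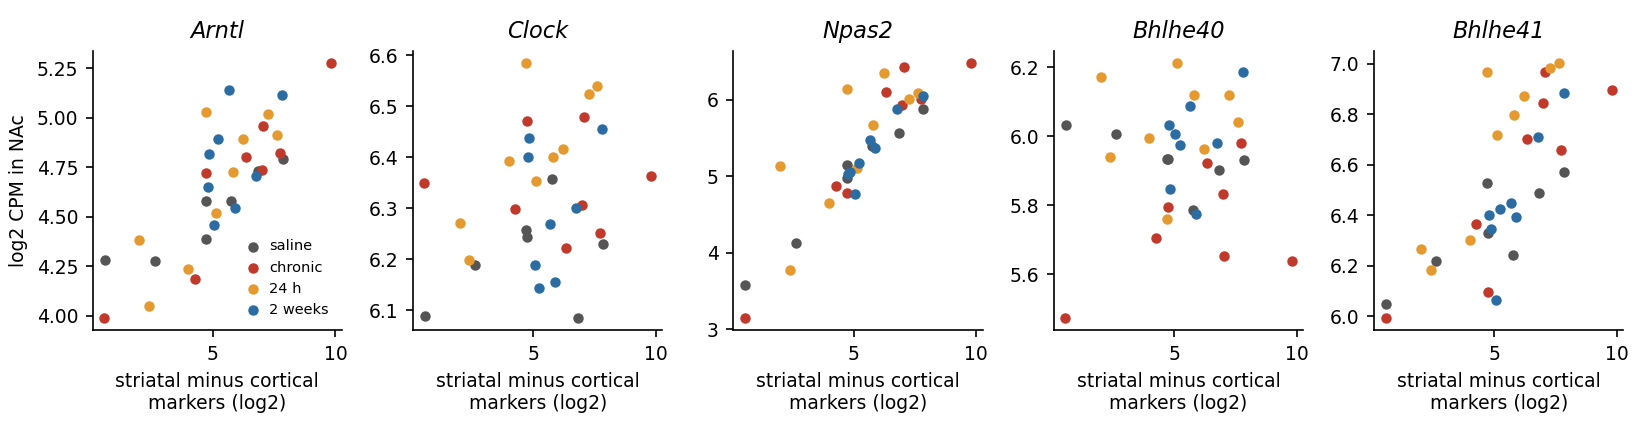
Log2 CPM of each gene in the 32 NAc libraries against the mean log2 CPM of striatal minus cortical markers, coloured by stage. Npas2, Bhlhe41 and Arntl climb with the score across stages, from a lowest score of 0.56 to a highest of 9.80, and Clock and Bhlhe40 show no such line.

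By label, the sexes did not differ in these genes beyond the test. Number 27 was counted as female in these fits, among the 3 chronic females of each region. Its Y-linked genes were at 87.6 CPM in PFC and 134 in NAc, and Xist at 0 and 1.03. For female minus male edgeR called 0 of 5 genes in PFC (1 at an unadjusted p under 0.05, 0 by DESeq2) and 0 of 5 in NAc (0 unadjusted, 0 by DESeq2), against 0.0334% and 0.0598% of all genes. The PFC gene under 0.05 unadjusted was Npas2 at -0.24 ± 0.10 (edgeR adjusted p = 0.946), beside 815 of 17966 genes tested. Whether stage effects differ by sex gave 0 of 5 in PFC (1 unadjusted, Bhlhe41, with edgeR adjusted p = 0.922) and 0 of 5 in NAc (0 unadjusted), with 0 by DESeq2 in both. Over all genes edgeR called 0% in PFC (846 unadjusted, 47 by DESeq2) and 0.0544% in NAc.

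The genes whose deviations were most like those of each member were sought among 11358 genes, by the lower of the r in PFC and in NAc. For Bhlhe40 these were P4ha1 (0.78 in PFC, 0.59 in NAc), which encodes a collagen prolyl hydroxylase, Map3k5 (0.55 and 0.53), a stress-activated kinase, and Enc1 (0.69 and 0.52). For Npas2 they were Mapk4 (0.84 and 0.86), Plxnd1 (0.89 and 0.83) and Mapk14 (0.82 and 0.83), and for Bhlhe41 they were Foxo6 (0.67 and 0.75), Znrf3 (0.60 and 0.65) and Tgfa (0.59 and 0.73). Arntl was nearest to Scmh1 (0.86 and 0.88), Pcdhb13 (0.88 and 0.84) and Paqr9 (0.84 and 0.82), and Clock to Nsd3 (0.78 and 0.76), Zfp871 (0.92 and 0.76) and Lrp1b (0.76 and 0.75). Without number 10 the first gene was another for 4 of the 5 members. It was then Pcdhb13 (0.65 and 0.84) for Arntl, Zfp445 (0.86 and 0.82) for Clock, Phactr1 (0.86 and 0.97) for Npas2 and Pard3 (0.76 and 0.92) for Bhlhe41, while P4ha1 (0.79 and 0.59) was again first for Bhlhe40. These r are over 30 or 29 PFC and 32 NAc libraries and are a description.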

How the data were processed

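The authors deposited raw read counts per gene for 62 mouse libraries, whole numbers that were used as they are. The submitters' processing notes name FastQC, cutadapt, Trimmomatic, HISAT2, STAR and RSEM and the builds GRCm38 and Rnor_6.0 for the series, without saying which served the mouse table. Rows of unassigned reads stayed out of sizes and tests. Relative to all reads listed, their median shares in PFC were 5.36% outside genes, 0.832% ambiguous, 0.605% unaligned and 13.7% aligned to several places. The rat table was not used here. Symbols and exon lengths came from GENCODE M21, matching 45143 of 46078 identifiers.

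Each region was fitted whole with edgeR 4.0.16 (R 4.3.3; TMM, filterByExpr, quasi-likelihood F-test) with 1 mean per treatment and sex, sexes weighted equally, and Benjamini-Hochberg adjustment over all genes tested (17966 in PFC, 18382 in NAc, 19266 for both). Nothing says that libraries of 1 group came from separate animals, so p-values measure the spread between these libraries. Log2 CPM used a prior count of 2 on a scale shared by all libraries. On simulated PFC counts of chronic against saline (17966 genes), 85.1% of genes changed by a log2 fold change of 1.0 and 33.3% of those changed by 0.5 were recovered, with 3 false calls. Correlations used 100000 permutations of libraries within treatment and sex (two-sided; Python 3.11.15, numpy 2.4.6, scipy 1.17.1). No library was a copy of another, with 0 identical pairs, and pairs within groups differed by at least 12.3 times the counting noise.

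All 5 genes are named in each comparison, and other genes by list or by the rule for nearest patterns. The members and lists were chosen with earlier results of these data known. The alternatives tried were DESeq2 1.42.0, size factors by median of ratios, keeping genes of low counts, adjusting for 2 surrogate variables (sva 3.50.0), the marker difference and the split as covariates, saline libraries only, the replicate block and leaving out each library. The fits without the numbers 10 and 27, without 3 NAc libraries whose hypothalamic markers were over 6 log2 CPM and within 1 side of the split were added after the data had been seen.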

Additional observations from a re-analysis of the deposited data

Results flagged for a closer look

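Within 40 groups of libraries (each gene in each region and treatment), 4 had a highest or lowest library set apart from the rest by a wide gap relative to the range, and chance alone gives about 1 in 20. PFC number 10 at 2 weeks was the lowest library for Clock (-3.96 log2 CPM, a count of 0) and for Npas2 (4.31 log2 CPM). Clock was also low in PFC number 20 at 24 h, at 5.65 log2 CPM. Bhlhe41 was high in PFC number 25 under chronic morphine, at 6.59 log2 CPM.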

How the results depend on the processing

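Over the fits with other size factors, no result crossed the threshold or changed sign. With no low-count filter, Bhlhe40 at 2 weeks against chronic morphine in NAc was no longer called (0.27, edgeR adjusted p = 0.0661; 0 genes called) and 1 gene was called at 24 h against chronic morphine in PFC. DESeq2 called 1 gene at 24 h against chronic morphine in each region (over all genes 35 of 17966 in PFC and 122 of 18382 in NAc). It also called 1 at 24 h against saline in NAc (167 of 18382). With 2 surrogate variables, Bhlhe40 under chronic morphine in PFC was -0.49 (edgeR adjusted p = 0.0678; 0 called), and 1 gene was called at 24 h against chronic morphine in NAc. Signs then changed for Arntl (-0.043) and Npas2 (-0.00048) at 24 h and Bhlhe41 (-0.0023) at 2 weeks in NAc, and in PFC for Bhlhe41 under chronic morphine (-0.017), Clock (0.037) and Npas2 (0.019) at 2 weeks and Clock at 24 h (0.0029). With the marker difference as a covariate, 1 gene was called at 24 h against chronic morphine and 2 at 24 h against saline in NAc, and signs changed for Bhlhe41 at 2 weeks in NAc (-0.017) and Clock at 24 h in PFC (0.21).

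With the split as a covariate, 0 genes were called against chronic morphine at 2 weeks in PFC (Bhlhe40 0.34) and NAc (0.16) and 0 under chronic morphine in PFC (-0.34). Signs changed in PFC for Bhlhe40 (-0.0032), Bhlhe41 (-0.015) and Npas2 (0.023) at 2 weeks and Bhlhe40 (0.070) and Clock (0.0085) at 24 h, and in NAc for Bhlhe41 (-0.13) and Npas2 (-0.11) at 2 weeks. Within 1 side of the split, Bhlhe40 under chronic morphine in PFC was -0.62 (0 called), and signs changed for Arntl (-0.25), Bhlhe41 (-0.063) and Npas2 (-0.31) at 24 h and Bhlhe41 (-0.097) and Npas2 (-0.18) at 2 weeks in NAc, and for Arntl at 2 weeks (-0.0040) and Bhlhe41 under chronic morphine (-0.093) in PFC. Without the libraries numbered 10 and 27, Bhlhe40 at 2 weeks against chronic morphine in NAc was 0.25 (edgeR adjusted p = 0.209; 0 called), and signs changed at 2 weeks in PFC for Clock (0.080) and Npas2 (0.022) and for the region difference of Clock (-0.066). With saline libraries only, that difference was -0.086, and that of Bhlhe41 0.20, not called. Without the 3 NAc libraries high in hypothalamic markers, Bhlhe40 at 2 weeks against chronic morphine in NAc was 0.23 (edgeR adjusted p = 0.0869; 0 called). Why these values moved was not tested. None of the values that changed sign was called in the fit reported or in the alternative.

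Leaving out each library in turn, Bhlhe40 ranged from -0.59 to -0.47 under chronic morphine in PFC and from 0.22 to 0.31 at 2 weeks against chronic morphine in NAc, and 0 to 1 genes were called in these contrasts and at 24 h against chronic morphine in either region. Signs changed in PFC for Bhlhe40 at 24 h (-0.10 to 0.023), Bhlhe41 under chronic morphine (-0.026 to 0.076), Clock at 2 weeks (-0.40 to 0.080) and 24 h (-0.067 to 0.076) and Npas2 at 2 weeks (-0.19 to 0.022), and for the region difference of Clock (-0.045 to 0.087). With the replicate number as a block, the region differences were -1.81 for Bhlhe40, -0.40 for Arntl and 0.30 for Bhlhe41, all called as without it, and no call changed. Deviations of 30 same-numbered PFC and NAc libraries correlated at -0.05 to 0.30 (median 0.13), with 19 pairs over 0.1 and 8 libraries best with their own number. Other pairs of the same treatment and sex had a median of -0.04. In both regions, 24 h males 16 and 17 lay on the low side of the split and 22, 23 and 24 on the high side. The labels used here do not say if a shared number is 1 animal. Region tests without the block treat all libraries as separate. The block fit could only be made for contrasts between regions. At this size, the simulated PFC contrast recovered 33.3% of changes of 0.5 in log2, and no simulation was made for NAc.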
